A study of Mus musculus with 6 samples.

Results

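Expression of 8 genes named for cholesterol synthesis and its control (*Hmgcs1*, *Idi1*, *Fdps*, *Sqle*, *Lss*, *Sc4mol*, *Dhcr7* and *Insig1*) was examined in the cochlea of *Cmah*-null mice and WT controls. The genes were taken by symbol, and every array probe annotated with one of these symbols was used, whatever its value. In all, 7 of the 8 genes had a probe under that symbol, with 11 probes among the 25697 on the array, which carries 18138 gene symbols. *Hmgcs1* was not analysed here. Both groups were of the C57BL/6 strain (C57BL/6J in the study's methods) and 12 months old, with 3 arrays per genotype and 1 array per sample. The control group was wild type, and the other group carried the *Cmah* knockout allele tm1Ykoz, which removes the hydroxylase that makes the sialic acid Neu5Gc. The study used these mice to ask how the cochlea of an animal with age-related hearing loss differs in gene expression from that of a WT animal of the same age. The sex of the animals, and whether RNA was pooled, are not given in the sources used here, so p-values measure the spread between these samples.

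Cholesterol is made from acetyl-CoA through the mevalonate pathway, then squalene, lanosterol and a series of sterol intermediates. The genes of the pathway are switched on together by the transcription factor SREBP-2 when sterols are scarce, while INSIG proteins hold the SREBP escort SCAP in the endoplasmic reticulum when sterols are plentiful. Myelinating Schwann cells, neurons and the lateral membrane of outer hair cells all depend on cholesterol in the inner ear. Cells also take up cholesterol in lipoproteins and export it through ABC transporters.

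Because these genes share a known regulator, the 250 bases upstream of their transcription starts were read first. RefSeq promoter windows (GRCm38.p6) were matched for 5 of the 7 genes, with 3 windows for *Dhcr7* and 7 windows in all. *Sqle* and *Fdps* were not matched. Both strands were searched for a sterol regulatory element core (TCACNCCAC), the NF-Y box (CCAAT) and the GC box bound by SP1 (GGGCGG). No match overlapped another. An NF-Y box was found in 5 of the 7 windows, covering all 5 genes, and in 33.8% of all 32851 upstream windows of the annotation. A GC box was found in 6 of the 7 windows, again covering all 5 genes, against 32.7% of all windows. The sterol regulatory element core was found in 0 of the 7 windows and in 1.05% of all windows. The upstream stretches of *Lss*, *Sc4mol* (now *Msmo1*) and *Insig1* are printed. *Lss* is an enzyme whose groups did not overlap by a narrow margin. *Sc4mol* had the probe with the widest spread, and *Insig1* is the feedback regulator of the set. The stretches run in the direction of the gene and end at the base before the start, with NF-Y and GC boxes of either strand in capitals. The *Lss* stretch is chr10:76531355-76531604 (plus strand), that of *Sc4mol* chr8:64733579-64733828 (minus strand) and that of *Insig1* chr5:28071162-28071411 (plus strand).
Lss: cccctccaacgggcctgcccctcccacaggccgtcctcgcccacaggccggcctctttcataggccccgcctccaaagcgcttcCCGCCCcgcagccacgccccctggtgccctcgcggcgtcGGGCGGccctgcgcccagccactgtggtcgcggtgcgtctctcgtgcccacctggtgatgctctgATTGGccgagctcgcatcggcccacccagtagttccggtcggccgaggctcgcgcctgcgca
Sc4mol: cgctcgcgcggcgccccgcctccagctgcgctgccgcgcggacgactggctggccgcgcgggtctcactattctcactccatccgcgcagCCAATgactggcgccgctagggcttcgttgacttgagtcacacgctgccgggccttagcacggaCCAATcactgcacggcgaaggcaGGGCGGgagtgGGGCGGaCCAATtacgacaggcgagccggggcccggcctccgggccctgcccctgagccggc
Insig1: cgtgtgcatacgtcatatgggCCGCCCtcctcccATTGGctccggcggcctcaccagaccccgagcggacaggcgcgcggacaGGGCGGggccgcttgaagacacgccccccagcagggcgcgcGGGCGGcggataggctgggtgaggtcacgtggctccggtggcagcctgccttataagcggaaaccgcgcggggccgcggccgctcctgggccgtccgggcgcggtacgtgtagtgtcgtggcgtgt
Counting from the start site, *Lss* held its NF-Y box at -62 and *Insig1* held one at -216, each on the reverse strand. *Sc4mol* held 3 NF-Y boxes, at -160, -96 and -55. These matches are a description of the letters in the window.

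Across the arrays, between 13873 and 15223 probes were detected per array at a detection p under 0.05, and a probe was carried by a median of 32 to 34 beads on 3 arrays (WT 1, *Cmah*-null 1 and *Cmah*-null 2) and 38 or 39 on the other 3. *Cmah*-null replicates 1 and 2 were the nearest pair of arrays (SD of their log2 difference 0.126). *Cmah*-null replicate 3 stood apart from every other array (0.562 to 0.636, where the remaining pairs were at 0.307 to 0.439) and had the fewest detected probes. The SEs and p-values treat *Cmah*-null replicates 1 and 2 as independent samples, which these values cannot check. The *Cmah* probe gave log2 signals of 7.27, 7.28 and 7.87 in WT and 7.95, 7.98 and 7.27 in *Cmah*-null, was detected on 3 of the 6 arrays, and does not check the genotype at this level. Y-linked *Eif2s3y* gave 10.02, 11.35 and 7.16 in WT and 7.31, 7.07 and 9.58 in *Cmah*-null. It was detected on 2 WT arrays and 1 *Cmah*-null array. X-linked *Xist* ILMN_3022688 gave 7.13, 7.20 and 8.95 in WT and 8.30, 8.23 and 7.78 in *Cmah*-null. Its probe ILMN_3123341 gave 7.52, 7.38 and 8.75 in WT and 8.66, 8.62 and 8.14 in *Cmah*-null. On *Cmah*-null replicate 3, both *Eif2s3y* (9.58) and this *Xist* probe (8.14) were detected. Whether that sample holds RNA of both sexes was not tested. By these genes the arrays were not alike in sex within or between groups, and sex was not adjusted for. The hair cell markers *Pou4f3*, *Slc26a5* and *Strc* and the support cell markers *Otor* and *Tectb* were detected on no array. The hair cell markers *Myo7a* and *Otof* each had a probe detected on all 6 arrays. So did the support and matrix markers *Coch*, *Gjb2*, *Gjb6*, *Otoa* and *Tecta*. Brown fat markers differed between the groups, as given below beside the results. In these bulk samples, fewer cells of a type and less RNA per cell cannot be told apart.

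No cholesterol gene of the set passed a test between genotypes, while most of its probes read lower in *Cmah*-null. Of the 11 probes, 9 had a log2 difference (*Cmah*-null minus WT) below 0 and 2 above 0, with a median of -0.30, beside a median of 0.00 over all probes on the array and 0.03 over probes detected on all 6 arrays. Under median scaling (arrays scaled to a common median in place of quantile normalization) 8 were below 0 and 3 above, with a median of -0.18, and the median over probes detected on all 6 arrays moved to 0.30. None of the 11 reached 1.5-fold with an unadjusted limma p under 0.05 (1.5-fold with p hereafter), which 2.71% of all probes did. None had an unadjusted p under 0.05, which 8.56% of all probes had, and none passed after Benjamini-Hochberg adjustment, as was true of the whole array (0% of probes, smallest adjusted p 0.25). In 2 of the 11, *Sqle* ILMN_2600348 and *Lss*, every *Cmah*-null array lay below every WT array, a pattern seen in 7.33% of all probes. The opposite pattern was seen in 0 of the 11 and in 9.11% of all probes. With 3 arrays against 3 the exact permutation test cannot give a p below 0.1.

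**Figure D1:**
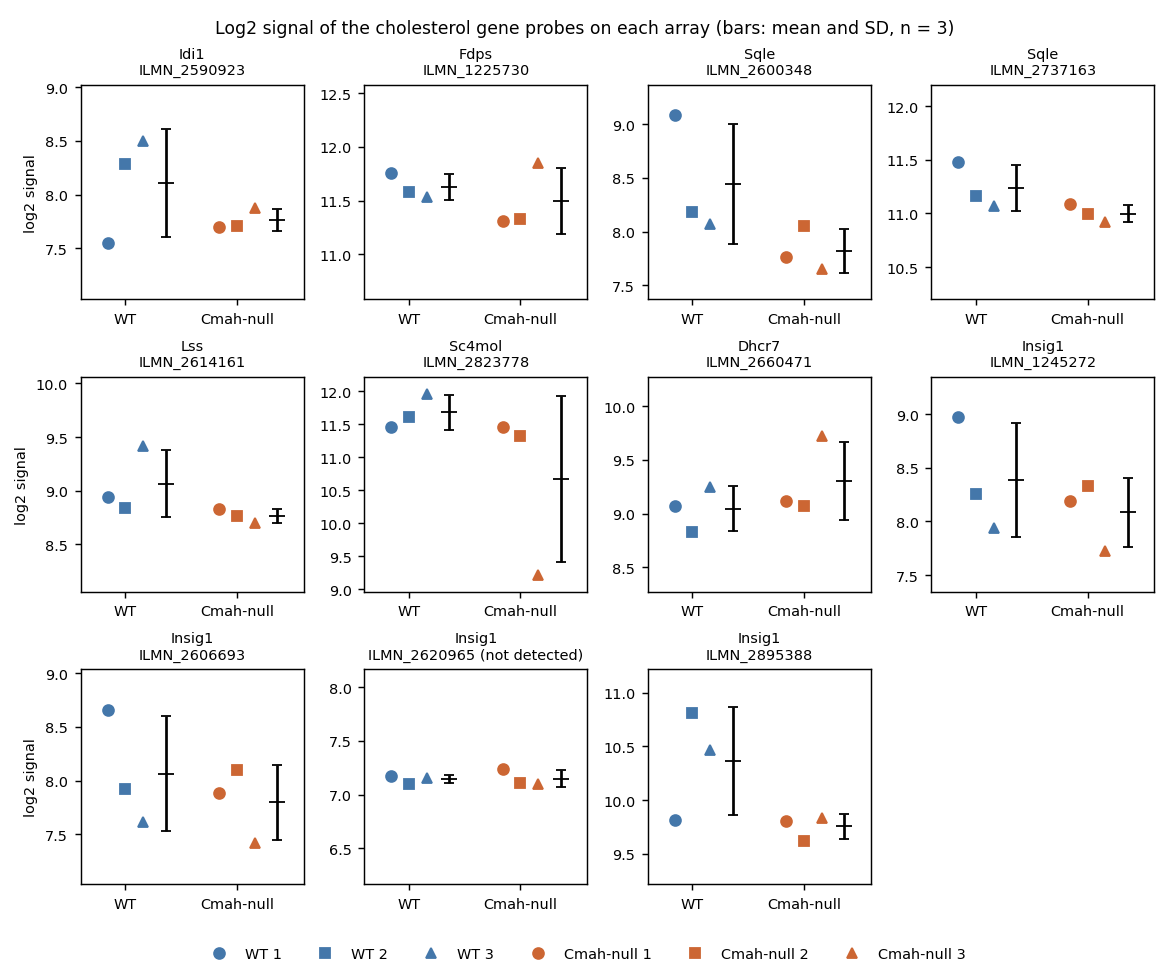
Log2 signal of each of the 11 probes on each array (y axis, log2 units; each panel has its own range), with WT arrays in blue and *Cmah*-null arrays in orange, replicates as circle, square and triangle, and bars giving mean and SD (n = 3). The groups are apart only for *Sqle* ILMN_2600348 and *Lss*, and *Sc4mol* has 1 array, *Cmah*-null 3, at 9.22.

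In the arm before squalene, 2 genes were measured. *Idi1* encodes isopentenyl diphosphate isomerase, which interconverts the isoprene units of the pathway. Its probe ILMN_2590923 (chromosome 13, band 13qA1) gave log2 signals of 7.55, 8.28 and 8.50 in WT and of 7.70, 7.71 and 7.88 in *Cmah*-null. WT replicates 2 and 3 were the highest 2 arrays, WT replicate 1 was the lowest of all 6, and the groups overlapped. The difference was -0.35 (SE 0.25, 95% interval -0.97 to 0.28, limma adjusted p = 0.734). Without WT replicate 1 the difference for *Idi1* was -0.63, with an unadjusted limma p under 0.05, and without WT replicate 3 it was -0.15.

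*Fdps* encodes farnesyl diphosphate synthase, whose product also feeds protein prenylation and ubiquinone synthesis. Its probe ILMN_1225730 (band 3qF1) gave 11.76, 11.58 and 11.54 in WT and 11.31, 11.33 and 11.85 in *Cmah*-null. *Cmah*-null replicate 3 was the highest of all arrays and the other two *Cmah*-null arrays the lowest. The difference was -0.13 (SE 0.17, 95% interval -0.54 to 0.29, limma adjusted p = 0.853), and it turned to 0.38 under median scaling. Without *Cmah*-null replicate 3 it was -0.30, with an unadjusted limma p under 0.05, and without *Cmah*-null replicate 1 or 2 it was -0.036 or -0.045.

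*Sqle* encodes squalene epoxidase, a rate-limiting enzyme of the sterol branch, and had 2 probes in band 15qD1. ILMN_2600348 gave log2 signals of 9.09, 8.18 and 8.07 in WT and of 7.76, 8.05 and 7.65 in *Cmah*-null. All 3 *Cmah*-null arrays lay below all 3 WT arrays, the nearest pair almost level, and WT replicate 1 stood above the rest. The difference was -0.62 (SE 0.29, 95% interval -1.34 to 0.09, limma adjusted p = 0.625, exact permutation p = 0.1). The second probe, ILMN_2737163, gave 11.48, 11.16 and 11.07 in WT and 11.08, 10.99 and 10.92 in *Cmah*-null. WT replicate 1 was again the highest and *Cmah*-null replicate 3 the lowest, while *Cmah*-null replicate 1 reached just above WT replicate 3. Its difference was -0.24 (SE 0.13, 95% interval -0.55 to 0.08, limma adjusted p = 0.662), and it turned to 0.25 under median scaling. Without WT replicate 1 the differences were -0.30 for ILMN_2600348 and -0.12 for ILMN_2737163. With neqc, which corrects the background before quantile normalization, they were -1.17 and -0.25.

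*Lss* encodes lanosterol synthase, which closes squalene epoxide into the first sterol. Its probe ILMN_2614161 (band 10qC1) gave 8.94, 8.84 and 9.42 in WT and 8.83, 8.76 and 8.70 in *Cmah*-null. The groups did not overlap, though the highest *Cmah*-null and the lowest WT array were nearly level, and WT replicate 3 was the highest of all. The difference was -0.30 (SE 0.16, 95% interval -0.71 to 0.10, limma adjusted p = 0.665, exact permutation p = 0.1). Without WT replicate 3 it was -0.13, and under median scaling -0.05.

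Of the later steps, demethylation and reduction were measured. *Sc4mol* encodes the sterol C4 methyl oxidase that demethylates sterol intermediates after lanosterol. Its probe ILMN_2823778 (band 8qB3.1) gave 11.46, 11.62 and 11.97 in WT and 11.46, 11.33 and 9.22 in *Cmah*-null. Only *Cmah*-null replicate 3 was far from the others, and the other 5 arrays lay within 11.33 to 11.97. The difference of -1.01 was the most negative among the 11 probes and also the least precise (SE 0.62, 95% interval -2.54 to 0.51, limma adjusted p = 0.694). Without *Cmah*-null replicate 3 it was -0.28. Between 22 and 35 beads carried this probe on each array.

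*Dhcr7* encodes 7-dehydrocholesterol reductase, the last enzyme of one branch to cholesterol. Its probe ILMN_2660471 (band 7qF5) gave 9.07, 8.83 and 9.25 in WT and 9.12, 9.07 and 9.72 in *Cmah*-null. *Cmah*-null replicate 3 was the highest array, and the groups overlapped. This was the only detected probe of the set with a difference above 0, at 0.26 (SE 0.21, 95% interval -0.26 to 0.77, limma adjusted p = 0.759). Under median scaling it was 0.53, with an unadjusted limma p under 0.05, against the same upward shift of all detected probes, and without *Cmah*-null replicate 3 it was 0.048.

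*Insig1* is both a target and a brake of SREBP, and had 4 probes in band 5qB1. ILMN_2895388, which starts at base 2239 of the transcript, gave 9.82, 10.81 and 10.46 in WT and 9.81, 9.62 and 9.83 in *Cmah*-null. WT replicates 2 and 3 lay above the other 4 arrays, and WT replicate 1 lay among the *Cmah*-null arrays. Its difference of -0.61 had the smallest p of the set (SE 0.26, 95% interval -1.24 to 0.02, limma adjusted p = 0.595). Without WT replicate 1 it was -0.88, with an unadjusted limma p under 0.05, and under median scaling it was -0.22.

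The other *Insig1* probes did not follow the same arrays. ILMN_1245272, starting at base 651, gave 8.97, 8.25 and 7.94 in WT and 8.19, 8.33 and 7.72 in *Cmah*-null, with a difference of -0.30 (SE 0.30, limma adjusted p = 0.80). ILMN_2606693, starting at base 686 and so sharing part of its target with the former, gave 8.66, 7.92 and 7.62 in WT and 7.88, 8.10 and 7.42 in *Cmah*-null, was detected on 5 of the 6 arrays, and differed by -0.27 (SE 0.31, limma adjusted p = 0.834). In both, WT replicate 1 was the highest and *Cmah*-null replicate 3 the lowest array, and without WT replicate 1 they differed by -0.012 and 0.030. Without *Cmah*-null replicate 3 they differed by -0.12 and -0.075. ILMN_2620965, starting at base 2459, was detected on 0 arrays and is given no fold.

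Next, the probes were set against each other over the 6 arrays, as a description, since the points share array and genotype. Among the 45 pairs of the 10 probes detected on some array, the Pearson correlation had a median of 0.08 and ran from -0.83 (*Dhcr7* with *Sc4mol*) to 1.00 (the overlapping *Insig1* probes), with 7 pairs above 0.8. *Sqle* ILMN_2600348 and ILMN_2737163 correlated at 0.94. *Sqle* ILMN_2600348 and *Insig1* ILMN_1245272 correlated at 0.90, and *Idi1* and *Insig1* ILMN_2895388 at 0.86. *Insig1* ILMN_1245272 and ILMN_2895388, which read the same gene, correlated at -0.20. The probes thus fell along different arrays, with WT replicate 1 highest for *Sqle* and the first *Insig1* pair and WT replicates 2 and 3 highest for *Idi1* and *Insig1* ILMN_2895388.

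The mean of the centred profiles of all 11 probes, with the undetected *Insig1* ILMN_2620965, was taken on the log2 scale. It was 0.23, 0.11 and 0.15 in WT and -0.09, -0.09 and -0.31 in *Cmah*-null. Without *Sc4mol* it was 0.23, 0.07 and 0.08 in WT and -0.13, -0.11 and -0.14 in *Cmah*-null. Among 12401 other probes detected on all 6 arrays, those whose values were most like this mean were *Apoc1* (r = 0.998), *D030028O16Rik* (0.992), *Ccl11* (0.991), *Coq6* (0.991) and *Cidea* (0.990). They are the highest of 12401 correlations over 6 arrays. Each, like the mean, was higher on every WT array than on every *Cmah*-null array, so these r values are not a test. The likeness was taken to the mean with *Sc4mol*, in which that probe's low array moved *Cmah*-null replicate 3 from -0.14 to -0.31. *Apoc1* encodes a lipoprotein component and *Cidea* a lipid droplet protein of brown fat. No shared role of the listed probes was tested.

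Among other enzymes of the pathway, *Acat2* was lower in *Cmah*-null by 1.5-fold with an unadjusted limma p under 0.05. The pathway lists gave 12 further synthesis genes with 16 probes. Of these, 12 probes had a difference below 0 (median -0.14), 3 had all *Cmah*-null arrays below all WT arrays (*Acat2*, *Mvd* and *Pmvk*, beside 7.33% of all probes) and 0 the reverse, and 1 reached 1.5-fold with p (2.71% of all probes). Before squalene 2 of the 6 probes, both for *Ggps1*, were detected on no array. Under median scaling 5 of the 6 probes before squalene and 5 of the 10 after it were below 0. None passed after adjustment over the array. *Mvk* and *Fdft1* were not analysed here.

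*Acat2* encodes the cytosolic thiolase that makes acetoacetyl-CoA for the pathway. Its probe ILMN_1253008 gave 11.12, 10.58 and 10.81 in WT and 10.31, 10.26 and 9.54 in *Cmah*-null. All *Cmah*-null arrays lay below all WT arrays, *Cmah*-null replicate 3 the furthest. The difference was -0.80 (SE 0.25, limma adjusted p = 0.527). It was -0.38 under median scaling and -0.66 without WT replicate 1, with an unadjusted limma p above 0.05 in both. Without WT replicate 3 (-0.81) the unadjusted p was not under 0.05, and without *Cmah*-null replicate 3 (-0.55) the difference was under 1.5-fold.

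The remaining enzymes were closer between groups. *Cyp51*, the lanosterol demethylase, gave 9.95, 9.30 and 9.31 in WT and 9.36, 9.35 and 8.41 in *Cmah*-null, with overlap and a difference of -0.48 (SE 0.32, limma adjusted p = 0.718). It was -0.16 without *Cmah*-null replicate 3, -0.26 without WT replicate 1 and -0.15 under median scaling. With the median bead number of each array (fewer or more) as a block it was -0.74, the setting in which its unadjusted limma p was under 0.05. *Mvd*, which decarboxylates mevalonate diphosphate, differed by -0.28 (SE 0.10, limma adjusted p = 0.553), with no overlap and an unadjusted p under 0.05. *Pmvk*, the kinase before it, differed by -0.19 (SE 0.09, limma adjusted p = 0.627), also with no overlap. *Nsdhl*, *Hsd17b7*, *Lbr*, *Ebp*, *Sc5d* and *Tm7sf2*, which act between lanosterol and the last reductions, had probes between -0.30 and 0.15 with overlapping groups. *Nsdhl* ILMN_2594521, ILMN_2594525 and ILMN_2725402 were detected on 3, 2 and 4 arrays.

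**Figure D2:**
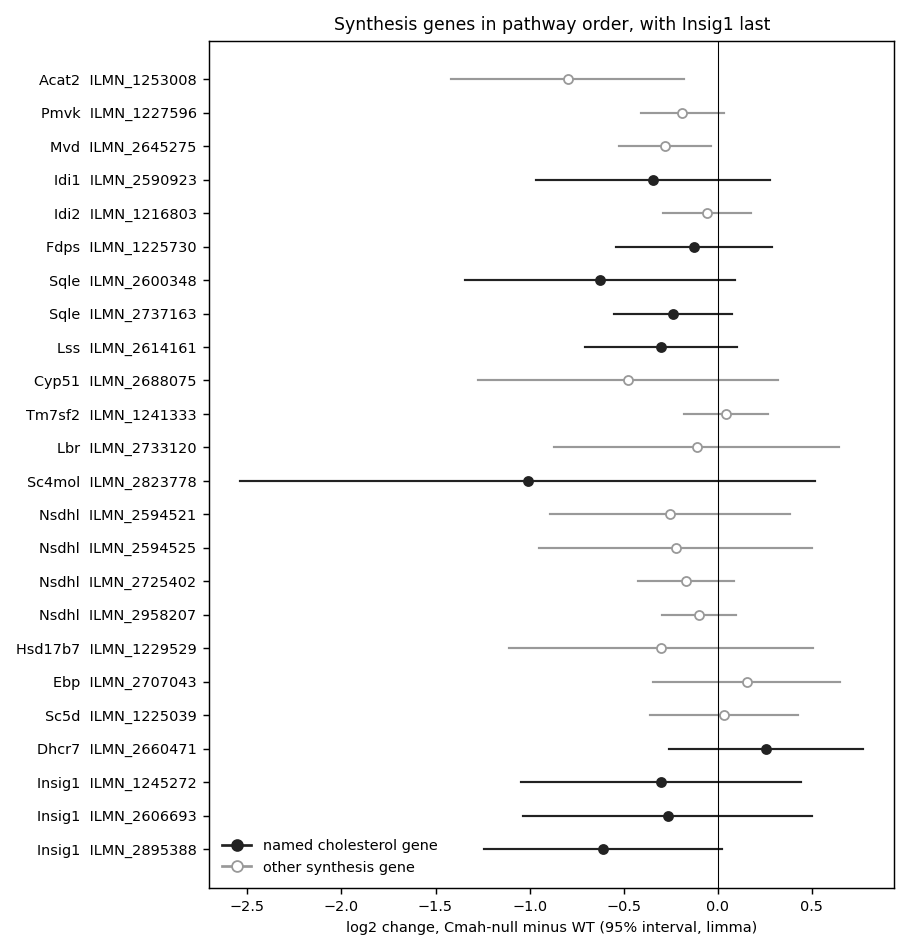
Log2 difference (*Cmah*-null minus WT, x axis) with its 95% limma interval for each synthesis probe detected on any array, ordered from acetoacetyl-CoA to cholesterol with *Insig1* last, the set in black and further enzymes in grey. Most points lie left of 0, *Acat2* is at -0.80, and the interval of *Sc4mol* is the widest.

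Regulators of the pathway did not share a direction. Of 16 probes for 8 genes of SREBP control, 8 had a difference above 0 and 8 below (median -0.01, and 0.032 under median scaling), and 0 reached 1.5-fold with p. Among the 16, 4 were detected on no array. *Srebf2*, which encodes SREBP-2, gave 9.20, 9.04 and 9.09 in WT and 9.36, 9.39 and 9.94 in *Cmah*-null. Every *Cmah*-null array lay above every WT array. The difference was 0.45 (SE 0.18, limma adjusted p = 0.574), and 0.26 without *Cmah*-null replicate 3. Its unadjusted limma p was under 0.05, and above 0.05 without any 1 of the WT arrays, with the detection filter, with the replicate block and with the trended variance prior.

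*Srebf1*, which encodes the factor of fatty acid synthesis, had a detected probe at 9.48, 9.0 and 8.76 in WT and 8.54, 8.54 and 9.74 in *Cmah*-null. Its difference was -0.14 (SE 0.38, limma adjusted p = 0.936), which turned to 0.061 without WT replicate 1 and to 0.060 under median scaling. *Insig2* had a probe at -0.30 with no overlap (ILMN_1216822, SE 0.11, limma adjusted p = 0.554) and a probe at -0.14 with overlap, and both turned above 0 under median scaling (0.062 and 0.35). Its remaining probe was detected on 0 arrays.

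Uptake could be followed only in part. *Scarb1*, the HDL receptor gene, was detected on 0 of the 6 arrays, and so were *Mylip* and *Lrp8*. Of 15 probes for 9 uptake and transport genes, 0 reached 1.5-fold with p, 11 were below 0, and the median was -0.09. The receptor gene *Vldlr*, singled out after its values were seen, had 5 probes, all with differences below 0 (4 of 5 under median scaling). Its ILMN_1218264 gave 11.73, 11.33 and 10.98 in WT and 10.74, 10.90 and 10.67 in *Cmah*-null, a difference of -0.58 (SE 0.20, limma adjusted p = 0.549). *Vldlr* supplied all 4 uptake probes with an unadjusted p under 0.05 (8.56% of all probes) and all 4 whose groups did not overlap (lower in 7.33% of all probes). However, 2 of its probes were detected on 1 array each. Its ILMN_1218264 and ILMN_2515601 start at bases 5 and 3 of the transcript and so share most of their target.

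For efflux, storage and oxysterols, 14 of 20 probes lay above 0 (median 0.09, and under median scaling 16 of 20 with a median of 0.37), 3 had every *Cmah*-null array above every WT array and 0 the reverse (9.11% of all probes for the former), and 1 reached 1.5-fold with p (2.71% of all probes). That probe was for *Abcg1*, a transporter that exports sterol to HDL, with 9.27, 9.11 and 9.24 in WT and 9.63, 9.55 and 10.58 in *Cmah*-null. The *Cmah*-null arrays were all higher, replicate 3 by the most. The difference was 0.71 (SE 0.29, limma adjusted p = 0.580). It was 0.38, under 1.5-fold, without *Cmah*-null replicate 3, and its unadjusted limma p was above 0.05 without any 1 of the WT arrays. *Abca1*, the partner transporter, was detected on 1 of the 6 arrays and differed by -0.05 (SE 0.11). Among the 20 probes, 3 were detected on no array.

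Of the fatty acid synthesis genes that SREBP-1 drives, 7 of 8 probes were below 0 (median -0.43, and under median scaling 5 of 8 with a median of -0.31) and 1 reached 1.5-fold with p, beside 2.71% of all probes. *Scd1*, the stearoyl-CoA desaturase of skin and fat, gave 15.42, 14.63 and 15.42 in WT and 14.19, 14.06 and 14.07 in *Cmah*-null. The groups were clearly apart. The difference was -1.06 (SE 0.23, limma adjusted p = 0.399), and -0.63 under median scaling, where the unadjusted p was above 0.05. *Fasn*, the fatty acid synthase, gave 8.56, 7.59 and 7.41 in WT and 7.40, 7.55 and 7.88 in *Cmah*-null, and its difference of -0.25 (SE 0.32, limma adjusted p = 0.855) turned to 0.11 without WT replicate 1.

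**Figure D3:**
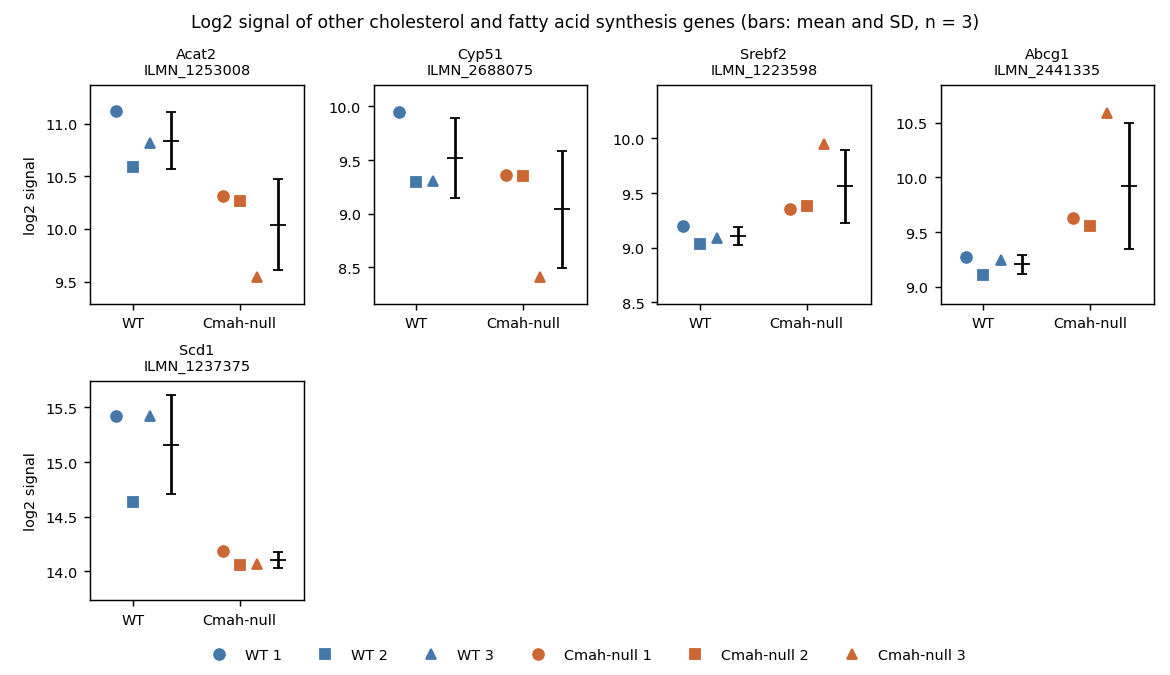
Log2 signal on each array (y axis, log2 units, own range per panel) for 5 probes of further cholesterol and fatty acid synthesis genes, with symbols as before and bars for mean and SD (n = 3). All *Cmah*-null arrays lie below WT for *Acat2* and *Scd1*, above WT for *Srebf2* and *Abcg1*, and overlap WT for *Cyp51*.

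Among tissue markers, those of brown fat read lower in *Cmah*-null. Of 6 brown fat markers all were below 0 with the deposited values, under median scaling and with neqc, and 4 reached 1.5-fold with p. Over all probes 2.71% did, the share to set beside each list below. *Ucp1*, the uncoupling protein, was at -2.11 (SE 0.52, limma adjusted p = 0.433) and *Cidea* at -2.01 (SE 0.42, limma adjusted p = 0.397). The summed linear signal of the 6 brown fat markers was 36496 to 57311 in WT and 7737 to 22279 in *Cmah*-null, with *Dio2* detected on no array. The 7 general fat markers summed to 52037 to 81432 in WT and 40879 to 71774 in *Cmah*-null, so the groups overlapped, with 1 of 7 probes at 1.5-fold with p, *Lep* at -1.49, and *Retn* detected on no array. Myelin markers, of 10 genes, summed to 42413 to 103558 in WT and 45246 to 50501 in *Cmah*-null. WT replicate 1 was the highest array, as it was for *Sqle* and for the brown fat and neuron sums. For myelin, 1 probe of *Mal* (-0.67) reached 1.5-fold with p. Of 18 myelin probes 15 were below 0, and 8 under median scaling. Of the neuron markers 7 of 7 probes were below 0 (6 of 7 under median scaling), 1 at 1.5-fold with p (*Prph*, -1.37), with *Nefl* and *Snap25* detected on no array and sums of 5271 to 12850 in WT and 4723 to 8136 in *Cmah*-null. Skeletal muscle probes were below 0 in 11 of 11 (7 of 11 under median scaling) and epidermis probes above 0 in 7 of 8, with 0 of either at 1.5-fold with p and overlapping sums. Bone probes were below 0 in 9 of 10 (5 of 10 under median scaling), with 0 at 1.5-fold with p. Bone sums were 25681 to 112223 in WT and 38964 to 41061 in *Cmah*-null. Blood and marrow probes were below 0 in 5 of 10 (1 of 10 under median scaling). The part of fat, myelin or any other tissue in the cholesterol gene values was not tested.

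Finally, the direction of each difference was followed over the alternative settings. *Idi1*, *Lss*, *Sc4mol*, *Dhcr7*, *Sqle* ILMN_2600348 and *Insig1* ILMN_1245272 and ILMN_2895388 kept their sign in the 10 alternatives that can alter a difference (the detection filter, the replicate block and the variance prior alter its p and not its size), *Insig1* ILMN_1245272 with a lowest size of -0.012, while *Fdps*, *Sqle* ILMN_2737163 and *Insig1* ILMN_2606693 each changed sign in 1. With neqc *Idi1* was at -0.65 and the overlapping *Insig1* pair at -0.53 each. With the median bead number of each array (fewer or more) as a block, 4 of the 11 probes had an unadjusted limma p under 0.05. They were both *Sqle* probes and the overlapping *Insig1* pair, where 17.7% of all probes passed. No probe of the set passed after adjustment in any alternative.

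**Figure D4:**
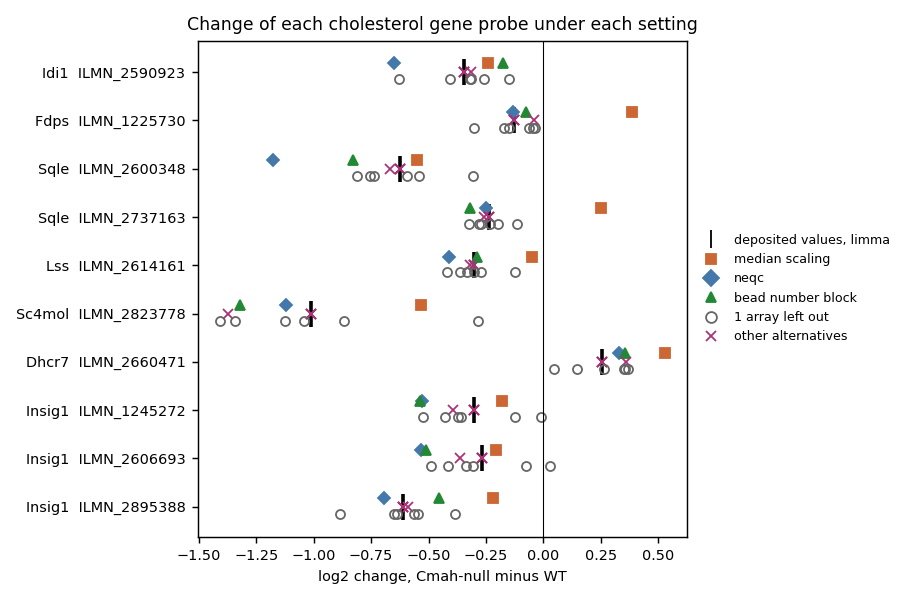
Log2 difference (*Cmah*-null minus WT, x axis) of the 10 detected probes with the deposited values (black bar) and under each alternative (symbols in the legend). Median scaling moves *Fdps* to 0.38 and *Sqle* ILMN_2737163 to 0.25, and *Sc4mol* comes to -0.28 when *Cmah*-null replicate 3 is left out.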

How the data were processed

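Total RNA from cochlear tissue was labelled and hybridized to Illumina MouseRef-8 v2 arrays, 3 WT and 3 *Cmah*-null. The authors deposited intensity values per probe without normalization, with bead numbers, and a detection p value against negative controls per the file headers. Their deposited log2 values equalled quantile-normalized log2 intensities without background correction (largest difference 5e-07). Columns named "old" were taken as *Cmah*-null by replicate number. The authors' own comparison columns (fold change and test statistics) were not used. Gene symbols and bands are those of the deposited annotation. Its probe coordinates are of an unstated build and are not printed.

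Log2 values were compared with limma 3.58.1 in R 4.3.3 (two-sided, from lmFit and eBayes without covariates, with Benjamini-Hochberg adjustment over 25697 probes), with an exact permutation test for single values. The fit was tested on simulated data. The call of 1.5-fold with an unadjusted p under 0.05 takes the study's thresholds. At these thresholds the study reported more genes in each direction than the 334 higher and 363 lower probes called here. The shares of all probes are therefore those of the present fit. Which test gave the study's p, and whether it was adjusted, is not given in the sources used here. The genes and lists were chosen with earlier results of these data known. Named were all probes of the set, *Cmah*, *Cyp51*, *Srebf1*, *Srebf2*, *Insig2*, *Abca1*, *Fasn*, listed genes that passed the call, the 5 probes most like the set's mean, and markers of lists that moved with genotype. *Mvd*, *Pmvk*, *Vldlr* and a few further genes were added after their values were seen. A few genes of the pathway are not reported here and were left out of the list counts. The number of arrays limits the precision. Figures used matplotlib 3.10.9 in Python 3.11.15.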

Additional observations from a re-analysis of the deposited data

How the results depend on the processing

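The alternatives were neqc (offset 16), scaling to a common median, a detection filter (3 arrays or more) and replicate number as block. Further ones were a variance prior with trend and robust, *Cmah*-null replicates 1 and 2 averaged, and each array left out. The bead block set arrays with a median bead number below 35.5 apart from those above it. Probes of the set with an adjusted p under 0.05 numbered 0 in every one. Those at 1.5-fold with an unadjusted p under 0.05, 0 as reported, numbered 1 with the trended prior (*Sqle* ILMN_2600348), 1 with the bead block and 0 to 2 with an array left out (2 without WT replicate 1, *Idi1* and *Insig1* ILMN_2895388, and 1 without WT replicate 3). Of all probes, 3.11% met that call with the trended prior and 6.72% with the bead block. With an array left out, 1.67% to 4.04% did (3.26% without WT replicate 1). Those with an unadjusted p under 0.05, also 0, numbered 1 under median scaling, 1 with the trended prior, 4 with the bead block and 0 to 2 with an array left out. The shares of all probes were 13.6% under median scaling, 7.93% with the trended prior and 17.7% with the bead block. With an array left out they were 4.8% to 13%. Probes whose groups did not overlap, 2 as reported, numbered 1 under median scaling, 4 with the replicates averaged and 2 to 5 with an array left out, where fewer arrays separate more easily. The share of all probes without overlap is not given for these settings, so no result is read from these counts. The median difference of -0.30 ran from -0.34 to -0.12 with an array left out, the last without WT replicate 1, and was -0.53 with neqc and -0.18 under median scaling. Other cholesterol probes at 1.5-fold with p, 2 of 67 as reported (*Acat2* and *Abcg1*), numbered 7 under median scaling, 7 with the bead block and 0 to 4 with an array left out, the lowest without *Cmah*-null replicate 3 and the highest without *Cmah*-null replicate 2. The shares of all probes were 9.68% under median scaling and 6.72% with the bead block. They were 3.43% without *Cmah*-null replicate 3 and 3.11% without *Cmah*-null replicate 2.

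Deviations of same-numbered samples from their group means correlated at 0.02, -0.17 and 0.01, and those of differently numbered samples at -0.10 to 0.17. *Cmah*-null replicates 1 and 2 were so alike that these values cannot show or exclude a pairing. With the replicate block the counts for the set stayed at 0, 0, 0 and 2, other cholesterol probes numbered 2, and calls over all probes went from 697 to 811. Over all probes the calls numbered 1482 with neqc, 1728 with the bead block, and 2488 under median scaling, of which 2409 were higher in *Cmah*-null, against 334 of 697 as reported.

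Differences that changed sign were, under median scaling, *Sqle* ILMN_2737163 (0.25), *Fdps* (0.38), *Srebf1* (0.060), *Insig2* ILMN_1216822 (0.062) and ILMN_2690256 (0.35). With the bead block *Abca1* came to 0.0018, and with the replicates averaged *Srebf1* came to 0.060. With an array left out, *Insig1* ILMN_2606693 ran from -0.49 to 0.030, *Srebf1* from -0.54 to 0.061 and *Fasn* from -0.47 to 0.11, each highest without WT replicate 1. *Abca1* ran from -0.14 to 0.044, highest without WT replicate 3, and *Insig2* ILMN_2690256 from -0.23 to 0.015, highest without *Cmah*-null replicate 3. The cause of these changes was not tested. Probes near background, such as *Abca1*, are limited by signal.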
